A study of Rattus norvegicus with 6 samples.

Results

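Ultraconserved elements are stretches of genome that are identical in human, mouse and rat, and they are known by catalogue numbers such as uc.162. The array used here carried a plus probe and a minus probe for such elements, 1 for each strand, and all probes whose name starts with uc. were taken, whatever their signal. They were 959 of the 38804 probes other than controls, and they covered 480 elements, of which uc.404 had a minus probe alone. The RNA came from pancreatic islets, the small organs that hold the insulin- and glucagon-secreting cells, of male rats. Each pancreas was cut into a head, the part beside the duodenum, and a tail, the part beside the spleen, and the islets of each part were isolated separately. RNA of 3 head samples and 3 tail samples was hybridised to 6 single-colour Agilent arrays of mRNA and long noncoding RNA probes. The labels give no treatment, genotype or strain that sets the groups apart, and the sample titles begin with 24W, which they do not explain. They also do not say that the 3 samples of a region are 3 separate animals, so p-values measure the spread between these samples, which may be technical. Of 16 marker genes of islet, exocrine, duct and endothelial cells, 0 could be assigned to a probe by name, so the make-up of the islet samples was not checked here.

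Many ultraconserved elements lie in or near genes of RNA-binding proteins or of developmental regulators. In genes of splicing factors they often overlap an alternative exon whose inclusion marks the message for decay, and through it the protein limits its own amount. Others lie in introns or between genes and act as enhancers, and a number are themselves transcribed into noncoding RNAs, from the plus strand, the minus strand or both. The RNA here was freed of ribosomal and transfer RNA and copied by random priming, so transcripts without a poly(A) tail could be labelled too. A probe inside an exon or intron cannot separate an independent transcript of the element from the host gene's own RNA. The sources used here do not state to which species, or to which strand of RNA, plus and minus refer, so the strands are named as the probes are.

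The level of a probe is given as log2 of its signal minus the 75th percentile of its array, so 0 is a signal that 1 in 4 probes exceeded. A probe was called detected if the scanner software rated it well above background on 3 or more of the 6 arrays. The 75th percentile of the raw signal was 114 to 264 on the tail arrays and 203 to 259 on the head arrays. No probe was saturated, and of the negative control spots, 146 to 153 per array, 0 were well above background. Tail replicate 1 stood apart from the other tail arrays. Over the 349 uc probes detected on all 6 arrays its levels correlated with those of head replicates 1 and 3 at Pearson r of 0.956 and 0.95. With tail replicates 2 and 3 the values were 0.882 and 0.895. Head replicate 2 in turn correlated at 0.953 and 0.957 with tail replicates 2 and 3, and at 0.95 and 0.931 with head replicates 1 and 3. These correlations are across probes of shared libraries and are descriptions only. Slides were told apart by the scan identifier in the file headers, which was taken to mark a slide. By it the 3 tail arrays lay on slide 1, head replicate 1 on slide 2 and head replicates 2 and 3 on slide 3. Slide and region therefore cannot be told apart.

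Of the 959 uc probes, 484 were detected (50.5%), against 82.9% of all probes of the array. Probes on all 6 arrays numbered 349, or 36.4% against 74.0% of all probes, and 360 uc probes (37.5%) were well above background on 0 arrays, against 11.4%. Among the probes whose names mark them as long noncoding RNA (LNC), 70.0% were detected. The median level of all uc probes was -5.23, against -2.36 for all probes. A level above 0 was reached by 48 uc probes, or 5.01% against 24.9% of all probes, and a level above 3 by 9. The counts of uc probes well above background were 567, 440 and 436 on the tail arrays and 464, 418 and 467 on the head arrays. The highest count was that of tail replicate 1, and the other 5 arrays did not separate by region.

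**Figure D1:**
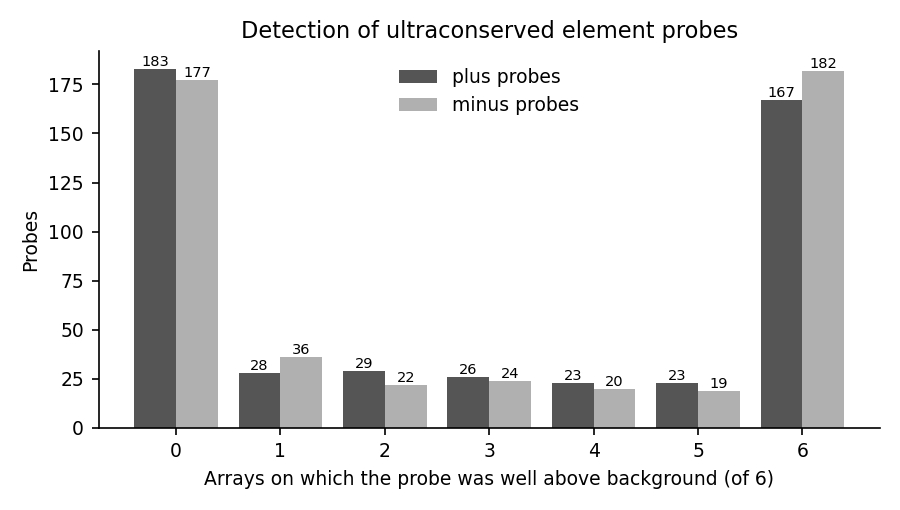
Number of uc probes (vertical axis) by the number of arrays, of 6, on which the probe was well above background (horizontal axis), for plus probes (dark bars) and minus probes (light bars). Most probes sit at the ends of the scale: 183 plus and 177 minus probes at 0 arrays, and 167 plus and 182 minus probes at 6.

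Both strands were detected about equally often. Of 479 plus probes 239 were detected (49.9%), and of 480 minus probes 245 (51.0%). By element, 145 of 480 (30.2%) had both probes detected, 94 the plus probe alone, 100 the minus probe alone and 141 (29.4%) neither. At least 1 strand was thus detected for 339 elements (70.6%). The minus probe was detected in 60.7% of the elements whose plus probe was, and in 41.5% of the 241 elements whose plus probe was not. The detected strands were often clear-cut: 45 elements had the plus probe well above background on 6 arrays and the minus probe on 0, 52 had the reverse, 83 had both on 6 and 88 had both on 0. These counts depend on the detection rule. With all 6 arrays required, 83 elements had both strands and 214 neither, and with a bar set at the 99th percentile of the negative controls, 280 had both and 49 neither.

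Elements with consecutive numbers lie next to each other on a chromosome in many cases. Over 476 consecutive pairs, the next plus probe was detected in 51.3% of cases after a detected one and in 48.7% after an undetected one, and for minus probes the shares were 54.5% and 47.9%. The longest unbroken runs were 13 plus probes, from uc.39 to uc.51, and 11 minus probes, from uc.324 to uc.334. Runs of 9 were seen from uc.468 to uc.476 on plus probes and from uc.469 to uc.477 on minus probes.

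The highest uc signal was that of uc.162-, the minus probe of uc.162. Levels are listed for replicates 1, 2 and 3 of the tail and then of the head, and those of uc.162- were 5.86, 7.94 and 7.93 in the tail and 7.01, 7.44 and 6.51 in the head. Tail replicate 1 was its lowest array, and the regions overlapped. The plus probe of the same element had a mean level of only -4.92 and was well above background on 5 arrays. For uc.247+ the levels were 6.15, 6.87 and 6.17 in the tail and 6.84, 7.33 and 5.81 in the head. The regions overlapped here too, and the minus probe of uc.247 was well above background on 0 arrays. For uc.335+ the levels were 6.03, 5.66 and 5.46 in the tail and 6.73, 7.40 and 5.95 in the head. Head replicate 3 fell just below tail replicate 1, so these regions overlapped, and the mean was higher in the head by 0.97 ± 0.41 (log2, SE, n = 3 and 3; limma, unadjusted p = 0.0474, adjusted p = 0.258). The minus probe of uc.335 was on 0 arrays.

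Below these 3 came probes with mean levels between 2.85 and 4.09. For uc.84- the tail levels were 3.73, 4.40 and 3.72 and the head levels 4.48, 4.93 and 3.30. For uc.305+ they were 6.04, 4.80 and 2.86 in the tail and 4.07, 3.26 and 3.29 in the head, so that 1 tail array held its highest level and another tail array its lowest. For uc.246- they were 3.48, 4.26 and 3.52 in the tail and 4.71, 4.81 and 3.15 in the head. In all 3 the regions overlapped. The levels of uc.465- were 3.80, 4.37 and 3.87 in the tail and 3.66, 4.25 and 3.23 in the head. For uc.141- they were 3.53, 2.21 and 2.17 in the tail and 3.55, 3.26 and 3.84 in the head, with tail replicate 1 among the head values. The uc.378- probe read 2.94, 3.43 and 3.14 in the tail and 2.27, 3.66 and 2.89 in the head. None of these passed the test between regions, and the direction of the small differences of uc.162-, uc.247+, uc.84- and uc.378- turned with the scaling or with 1 array left out. The tenth, uc.456-, belongs to the splicing factor gene SRSF6 and is described with its group.

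**Figure D2:**
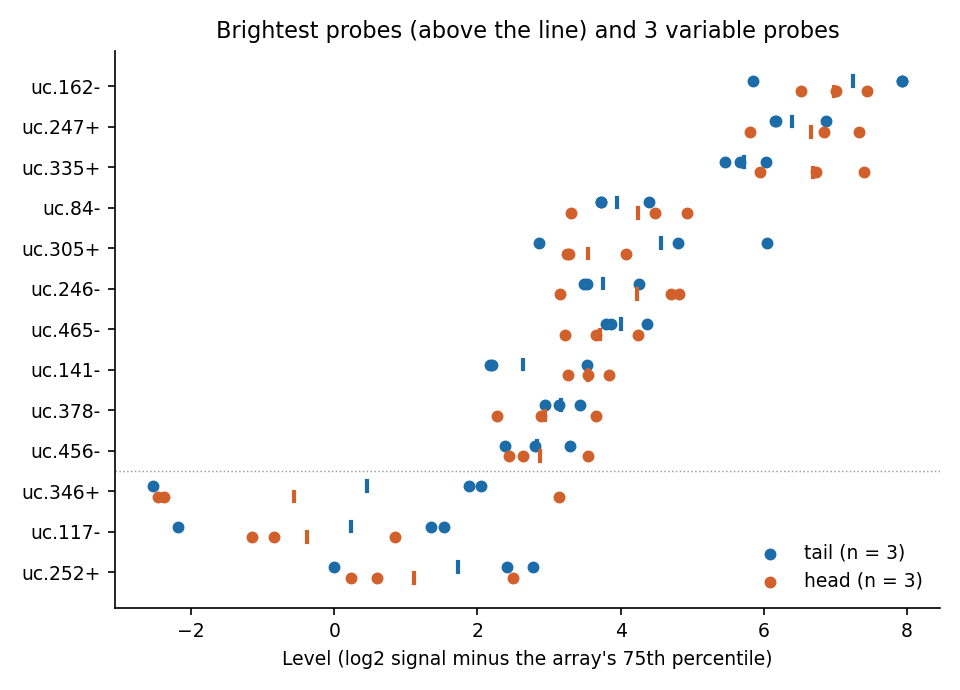
Level (horizontal axis, log2 signal minus the array's 75th percentile) of the 10 uc probes with the highest mean (above the dotted line) and of 3 variable probes (below it), with 1 point per array, tail arrays in blue and head arrays in orange, and a bar at each region's mean. The first 3 probes have means above 6, and the points of uc.346+ split into 3 near -2.5 and 3 at 1.88 to 3.14, with both regions in each set.

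The strand difference of an element is the log2 signal of the plus probe minus that of the minus probe on the same array, which no scaling of the array alters. The probes of an element differ in sequence and so may differ in how well they bind, and a strand difference therefore describes 2 signals and not the amounts of 2 RNAs. Among the 145 elements with both probes detected, the plus probe was brighter on every array in 49, the minus probe in 57, and the order varied between arrays in 39. The median size of the difference was 1.81 and its median SD over the 6 arrays was 0.58. It exceeded 2 in 64 elements and 4 in 28, and was below 1 in 50. The levels of the plus and minus probes were nearly unrelated over the elements with both detected (Pearson r 0.02, Spearman rho 0.06, given as a description of probes on the same arrays). Taking only elements with both detected cuts off low levels, which can itself bring such a correlation toward 0.

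Ordered by the signals as read, the first 6 elements toward the minus probe were uc.162, uc.465, uc.84, uc.298, uc.448 and uc.10. For uc.162 the difference was -12.03 ± 0.67 (SD, n = 6 arrays) and for uc.84 it was -9.25 ± 0.64. The plus probe was well above background on 5 arrays in uc.162 and on 3 in uc.84. For uc.465, uc.298, uc.448 and uc.10 the plus probe was well above background on 0 arrays, so that only bounds hold. On the log2 scale the minus probe was brighter by at least 9.04, 7.83, 6.57 and 6.17 in these 4, taking the lowest signal well above background on each array for the plus probe. The bounds of uc.448 and uc.10 lie below differences measured with both probes detected, such as -7.11 ± 1.48 in uc.50 and -6.97 ± 0.52 in uc.141. That of uc.465 lies below the size measured for uc.84, so the order toward the minus probe is not settled. Toward the plus probe the first 6 by the signals as read were uc.335, uc.247, uc.252, uc.415, uc.355 and uc.356. The minus probe was on 0 arrays in the first 5, with bounds of at least 11.38, 11.70, 6.59, 6.15 and 5.33, and on 1 array in uc.356, where the same floor gave 5.81. The order here is not settled either: the bounds place uc.247 above uc.335, and uc.136 and uc.481, with both probes detected, measured 5.76 ± 0.55 and 5.89 ± 0.33. All 12 differences kept their sign on every array, which follows largely from their choice by size. These sizes hold for the scanner software's background-subtracted signal: with normexp background correction they were 8.60 (uc.162), 5.63 (uc.84), 3.02 to 5.55 for the other 4 toward the minus probe, 7.98 and 8.27 for uc.335 and uc.247, and 2.35 to 3.35 for the other 4 toward the plus probe.

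Few elements were bright on both strands. The clearest was uc.420, chosen here after its values were seen: its plus probe read 2.48, 1.48 and 1.52 in the tail and 2.83, 2.51 and 2.60 in the head, and its minus probe 2.54, 2.25 and 2.31 in the tail and 3.08, 2.10 and 2.72 in the head. Its strand difference was -0.26 ± 0.46 (SD, n = 6), so neither strand stood above the other beyond the spread over arrays. Its plus probe had a head mean higher by 0.83 ± 0.38 (log2, SE; limma adjusted p = 0.272).

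**Figure D3:**
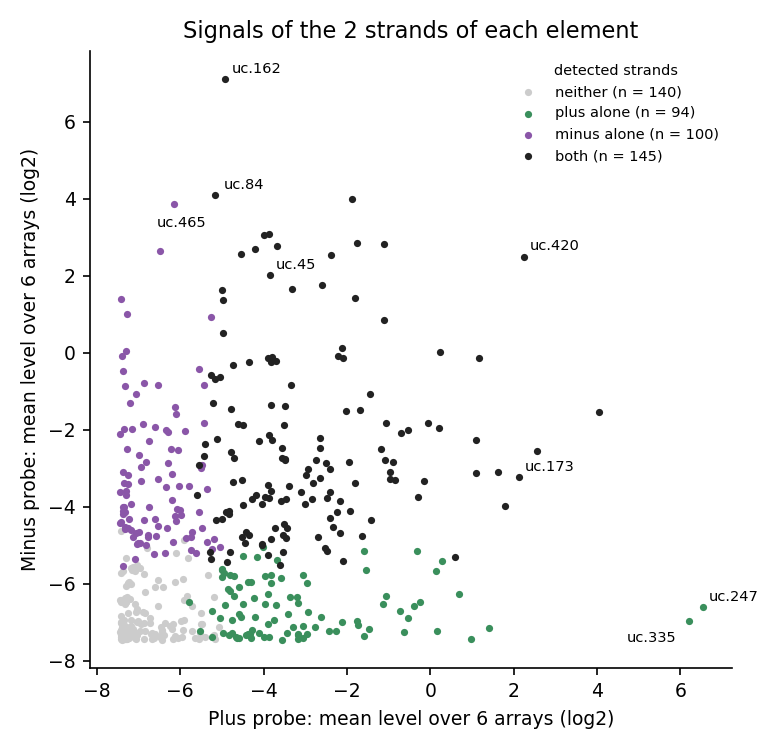
Mean level over 6 arrays of the plus probe (horizontal axis, log2 relative to the 75th percentile) and of the minus probe (vertical axis) of each element, coloured by which strands were detected. The 479 elements with both probes are drawn, so the group with neither strand holds 140 points and lacks uc.404. The highest signals lie along the axes, with uc.162 at the upper left and uc.247 and uc.335 at the lower right, and uc.420 alone is above 2 on both.

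Strand preference was also set beside the region. The strand difference changed by -1.88 to 1.70 from tail to head among the 145 elements with both probes detected, with a median of -0.14. In 18 of them (12.4%) head and tail arrays were fully separate, 7 with a higher and 11 with a lower value in the head. The change exceeded 1 in 22. No background share was worked out for these counts, and whether they reflect the region was not tested. Both probes of an element had the lower mean in the head in 69, both the higher mean in 38, and the probes went opposite ways in 38. Among the 12 elements named above, the regions did not overlap in uc.298 and uc.335. For uc.335 the plus minus minus difference was 12.48 ± 0.23 in the tail and 13.84 ± 0.51 in the head (SD, n = 3 each), and for uc.298 it was -8.69 ± 0.20 and -9.59 ± 0.19. In both the undetected strand enters the value, and no test was run on it.

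Elements in genes of RNA-binding proteins were the best detected of the 3 lists described here. The list held 18 elements in 16 genes, among them the splicing factor genes SRSF3, SRSF6, SRSF7, SRSF11, TRA2A and TRA2B and the hnRNP genes HNRNPU, HNRNPDL and HNRNPM. The genes were assigned from general knowledge of the human catalogue, and human symbols are used. In 15 of the 18 both probes were detected, in uc.33 (PTBP2) the plus probe alone, in uc.193 (SYNCRIP) and uc.313 (TIAL1) the minus probe alone, and in 0 neither. Among all 480 elements both probes were detected in 30.2%. The brighter probe of 15 of the 18 was brighter on every array.

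The highest signals of this group were on minus probes. The SRSF6 element uc.456- read 2.38, 3.29 and 2.81 in the tail and 2.63, 3.54 and 2.43 in the head, and its plus probe averaged -1.75. HNRNPU, which encodes an abundant nuclear RNA-binding and scaffold protein, holds uc.45 and uc.46. For uc.46- the levels were 2.85, 2.21 and 2.51 in the tail and 3.31, 2.87 and 3.27 in the head, and for uc.45- they were 2.76, 1.08 and 1.15 in the tail and 2.60, 1.83 and 2.67 in the head. The head values of uc.46- all lay above the tail values, with head replicate 2 only just above tail replicate 1, whereas tail replicate 1 was the highest array for uc.45-. Their plus probes averaged -1.10 and -3.85. The SRSF7 element uc.50- read 1.62, 3.31 and 2.11 in the tail and 2.20, 4.06 and 2.16 in the head, with replicate 2 highest in both regions. The HNRNPDL element uc.144- was steadier, at 1.53, 1.13 and 1.48 in the tail and 1.85, 1.85 and 1.97 in the head, without overlap. Neither uc.46- (adjusted p = 0.311) nor uc.144- (adjusted p = 0.341) passed the limma test.

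The 2 TRA2A elements differed in their brighter strand. TRA2A and TRA2B encode related activators of splicing. For uc.208 the plus probe averaged 1.09 and the minus probe -2.27, a difference of 3.37 ± 1.77 (SD, n = 6 arrays). For uc.209 the plus probe averaged -4.71 and the minus probe -2.73, a difference of -1.98 ± 1.45, and its order varied between arrays. The rat orientation of the host gene was found in RefSeq's promoter table (build GRCr8) for 19 of the 23 elements with an assigned host, counting the 5 in other genes. The brighter probe bore the name of the host's rat strand in 13 of these 19, and of its human strand in 11 of the same 19.

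**Figure D4:**
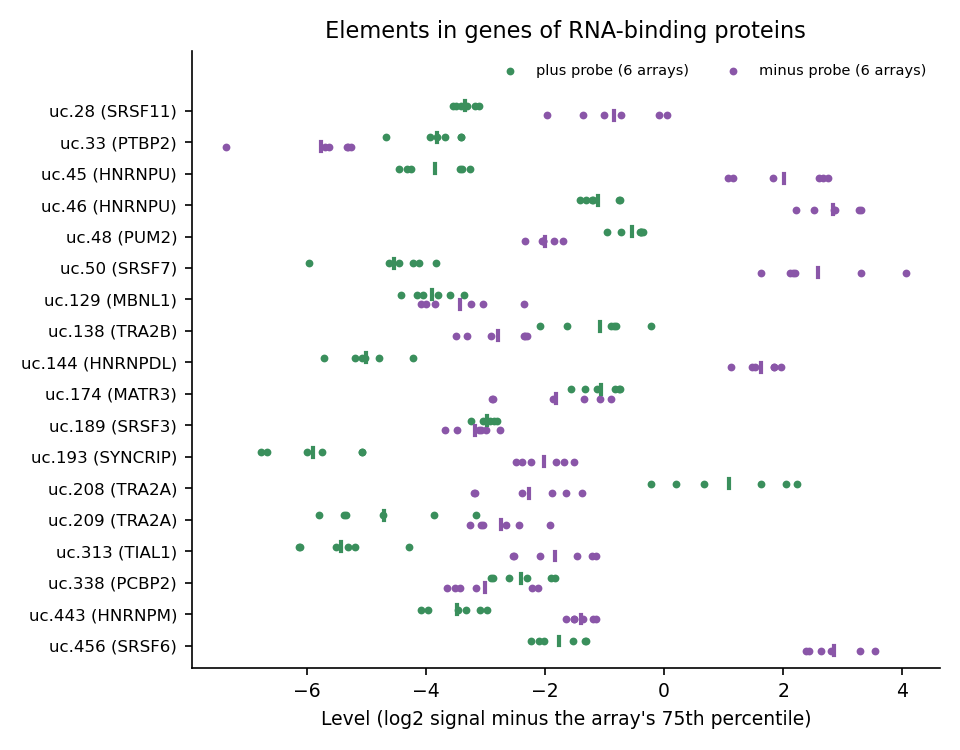
Level (horizontal axis, log2 signal minus the array's 75th percentile) of the plus probe (green) and minus probe (purple) of the 18 elements in genes of RNA-binding proteins, with 1 point per array (n = 6) and a bar at the mean. The minus probes of uc.45, uc.46, uc.50, uc.144 and uc.456 lie far to the right of their plus probes, while in uc.129, uc.189 and uc.338 both probes cover like ranges.

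Between the regions, 33 of the group's 36 probes were tested, and 22 had a higher and 11 a lower mean in the head (background higher in the head: 38.8% of all tested probes, 30.4% of tested uc probes). The median head minus tail difference was 0.37, while it was -0.46 over all tested uc probes and -0.23 over all tested probes. This median stayed above 0 under every scaling and with each array left out, from 0.10 with normexp background correction to 0.63 with median centring. None of the 33 passed the adjusted threshold, and at an unadjusted p below 0.05 there was 1 in each direction (background over all tested probes 3.81% higher and 15.4% lower). With the replicate number as a block, which takes same-numbered arrays of the regions as a pair, there were 4 higher (uc.138+, uc.174-, uc.208- and uc.443+, background 9.56%) and 3 lower (uc.209+, uc.338+ and uc.338-, background 24.2%), and 0 passed the adjusted threshold. The TRA2B probe uc.138+ read -0.88, -2.08 and -1.62 in the tail and -0.84, -0.81 and -0.22 in the head, without overlap, with a head mean higher by 0.91 ± 0.37 (log2, SE; limma adjusted p = 0.25). The PCBP2 probe uc.338+ read -2.30, -1.90 and -1.83 in the tail and -2.88, -2.61 and -2.90 in the head, also without overlap, at -0.79 ± 0.24 (limma adjusted p = 0.214). PCBP2 encodes a poly(C)-binding protein.

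Of the 5 elements in other genes, 4 had a detected strand. In OGT, which encodes the O-GlcNAc transferase, both probes of uc.475 were detected, with the plus probe at 1.18, 0.79 and 1.05 in the tail and 1.70, 1.18 and 1.14 in the head. In ZEB2, a zinc finger repressor gene, uc.77+ read 1.12, 1.14 and 1.01 in the tail and 0.57, 1.67 and 1.00 in the head, while uc.77- ranged from -5.27 to -1.01. The GRIA3 gene of a glutamate receptor subunit holds uc.478, detected on neither strand, and uc.479, detected on the plus strand at a mean of -1.07. The BCL11A probe uc.61+ had a mean level of -3.68. The 6 tested probes of these genes had 4 higher and 2 lower means in the head (background higher in the head: 38.8% of all tested probes, 30.4% of tested uc probes). Of the 6, 0 passed the adjusted threshold or an unadjusted p of 0.05. With the replicate block uc.475- and uc.77- were higher and uc.61+ lower at an unadjusted p below 0.05, against backgrounds of 9.56% and 24.2%, and 0 passed the adjusted threshold.

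Of 20 elements that have been studied as transcripts elsewhere, mostly in tumours, 9 had a detected strand, while 70.6% of all elements did. In this list 5 had both probes detected, 1 the plus probe alone, 3 the minus probe alone and 11 neither. The undetected elements were uc.8, uc.110, uc.261, uc.283, uc.291, uc.323, uc.349, uc.372, uc.388, uc.416 and uc.454. The highest signal was that of uc.173, whose transcript is known for its part in the growth of intestinal epithelium. Its plus probe read 2.33, 1.20 and 1.60 in the tail and 2.57, 2.01 and 3.04 in the head, and its minus probe -3.12, -4.02 and -3.68 in the tail and -2.77, -3.16 and -2.60 in the head. Tail replicate 1 lay above the lowest head array for both probes. The strand difference of uc.173 was 5.35 ± 0.17 (SD, n = 6), so the probes kept nearly the same distance on every array. The head means were higher by 0.83 ± 0.43 for uc.173+ (limma, adjusted p = 0.303) and by 0.77 ± 0.31 for uc.173- (adjusted p = 0.248).

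In the same list 14 of 40 probes were tested, with 5 higher and 9 lower means in the head and a median difference of -0.60 (background higher in the head: 38.8% of all tested probes, 30.4% of tested uc probes). The median was -0.26 under quantile normalization, -0.34 under median centring, -0.25 in the authors' deposited table and -0.068 with normexp background correction, and it ran from -0.65 to -0.38 with 1 array left out (-0.38 without tail replicate 3). At an unadjusted p below 0.05 there were 1 higher (uc.173-) and 5 lower (uc.73+, uc.134-, uc.160-, uc.338+ and uc.339+), against 3.81% higher and 15.4% lower of all tested probes and 1.45% and 23.6% of tested uc probes, and 0 passed the adjusted threshold. With the replicate block there were 3 higher and 6 lower (backgrounds 9.56% and 24.2%), among them uc.173+. For uc.134- the levels were -2.91, -2.00 and -2.33 in the tail and -3.67, -2.95 and -3.84 in the head, a difference of -1.07 ± 0.34 (limma adjusted p = 0.218) without overlap. For uc.73+ they were -4.53, -3.96 and -3.84 in the tail and -6.33, -5.15 and -4.76 in the head, where it was well above background on 1 array. With levels under the lowest one well above background raised to it, array by array, the head mean was lower by 1.01, and this value is a bound, since uc.73+ passed the filter through the tail. The fit on the levels as measured gave an adjusted p of 0.228 (limma), and its difference of -1.30 was -0.84 without head replicate 1 and -0.060 with normexp background correction.

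No uc probe differed between head and tail islets past the threshold. The comparison asks whether islets of the regions differ in these transcripts. Of 484 tested uc probes 0 had an adjusted p below 0.05 (limma, Benjamini-Hochberg over all 32182 tested probes, of which 0, or 0%, passed), and the smallest uc value was 0.211. With the replicate number as a block 0 uc probes passed again, the smallest adjusted p was 0.0614, and 1 of all tested probes (0.00311%) passed. At an unadjusted p below 0.05, 121 uc probes were called (25%), against 19.2% of all tested probes. The called uc probes were 7 higher in the head (1.45%, background 3.81%) and 114 lower (23.6%, background 15.4%). With the replicate block these counts were 36 higher (7.44%, background 9.56%) and 164 lower (33.9%, background 24.2%), for 41.3% called in all against a background of 33.8%. Quantile normalization gave 31 higher (6.4%, background 5.14%) and 40 lower (8.26%, background 6.6%), and median centring gave 30 higher (6.2%, background 8.78%) and 62 lower (12.8%, background 6.26%). A fit with slide as a random block, which cannot separate slide from region, called 111 uc probes past the adjusted threshold (22.9%, background 18.9%). Its estimated correlation within slides was -0.32. With each slide inside 1 region, a negative value narrows the error of the regional difference for all probes, so these calls are not read as differences.

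The counts also rested on single arrays. Without tail replicate 1 there were 52 higher (10.7%, background 14.6%) and 197 lower (40.7%, background 27.9%). Without tail replicate 2 there were 0 higher (background 1.33%) and 48 lower (9.92%, background 5.63%), and without tail replicate 3 there were 3 (0.62%, background 3.06%) and 61 (12.6%, background 7.9%). Without head replicate 1 there were 5 (1.03%, background 2.63%) and 64 (13.2%, background 9.7%), without head replicate 2 there were 14 (2.89%, background 4.36%) and 115 (23.8%, background 14.5%), and without head replicate 3 there were 2 (0.413%, background 2.07%) and 88 (18.2%, background 8.23%). In each of these fits the share of uc probes that was lower lay above the background and the share that was higher lay below it.

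A probe can pass the filter through 1 region alone, so the counts were repeated over the 349 uc probes detected on all 6 arrays. Of these 6 were higher (1.72%, background 3.69%) and 77 lower (22.1%, background 14.1%) at an unadjusted p below 0.05, and 243 (69.6%, background 60.3%) had the lower mean in the head. Head and tail arrays were fully separate for 11 higher (2.27%, background 5.09%) and 125 lower (25.8%, background 19.8%) of the 484 tested uc probes, and among the 349 for 10 higher (2.87%, background 5.33%) and 89 lower probes (25.5%, background 18.6%). The median difference was -0.46 over all tested uc probes and -0.42 over these 349, against -0.23 over all tested probes. Under quantile normalization the medians were -0.13 for uc probes and -0.06 for all probes, and under median centring -0.20 and 0.03.

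Most uc probes were dim, and dim probes had a lower median in the head whether or not they were uc probes. Between levels of -5 and -3 the median difference was -0.61 for 244 uc probes and -0.52 for 8410 other probes. Between -3 and -1 it was -0.38 for 120 uc probes and -0.34 for 9405 others, and above -1 it was -0.0046 for 83 uc probes and 0.16 for 13136 others. Below -5 the order turned, at -0.12 for 37 uc probes and -0.69 for 747 others. The part of signal level in the regional difference was not tested further.

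**Figure D5:**
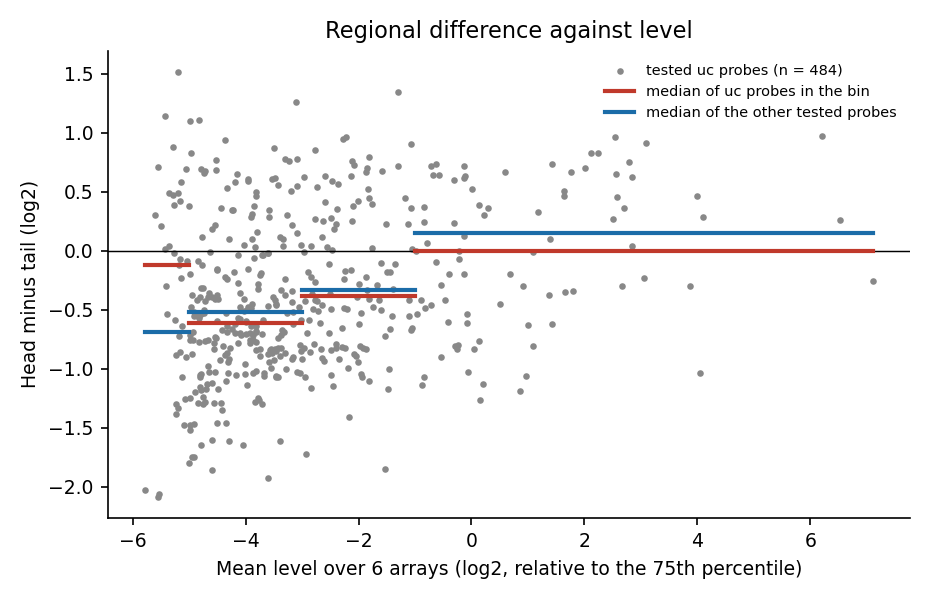
Head minus tail difference (vertical axis, log2) against mean level over 6 arrays (horizontal axis, log2 relative to the 75th percentile) of the 484 tested uc probes (grey points), with the median of uc probes (red) and of the other tested probes (blue) in 4 bins of level. The medians of both kinds lie below 0 in the 3 bins under -1, and above -1 the uc median lies at -0.0046 and the others' at 0.16.

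The probes named next were chosen by their difference. The rule asked for a difference of at least 1 on the log2 scale and no overlap between regions, which 1 higher probe (0.207%, background 1.72%) and 52 lower probes (10.7%, background 4.62%) met. Of the 52, 24 were well above background on all 6 arrays, and 41 still met the rule with levels raised to the lowest one well above background on their array. That lowest level was higher on tail replicates 2 and 3 (-4.58 and -4.70) than on the head arrays (-5.49, -5.10 and -5.47). Raising levels to it can thus by itself give a lower value in the head, so the 41 are not an independent check. The 8 lower probes with the smallest p all had an adjusted p of 0.211 (limma). The levels of uc.104- were -2.29, -2.29 and -3.36 in the tail and -4.88, -4.43 and -4.39 in the head, a difference of -1.92 ± 0.36 (log2, SE, n = 3 and 3), or 3.79-fold. The levels of uc.178+ were -1.63, -1.87 and -2.72 in the tail and -3.91, -3.61 and -3.88 in the head, a difference of -1.73 ± 0.32. In both, tail replicate 3 was the lowest tail array and still lay above every head array. The levels of uc.66- were -3.46, -3.53 and -3.85 in the tail and -5.09, -4.87 and -5.27 in the head, a difference of -1.46 ± 0.28. Those of uc.219+ were -3.31, -4.09 and -3.59 in the tail and -5.49, -6.05 and -5.03 in the head, where 1 array alone was well above background. It passed the filter through the tail, and with its head levels raised in the same way the head mean was lower by 1.55, as a bound.

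For uc.258+ the tail levels were -1.99, -1.95 and -1.98 and the head levels -3.11, -3.10 and -2.85, a difference of -1.05 ± 0.22. The brightest of the 8, uc.460-, read -0.06, -0.45 and -0.39 in the tail and -1.57, -1.30 and -1.44 in the head, a difference of -1.14 ± 0.26. For uc.476- the difference was -1.29 ± 0.29, with the tail between -3.96 and -3.70 and the head between -5.36 and -4.81. In these 3 every array was well above background and every head array lay below every tail array. The uc.468+ probe, which also passed the filter through the tail, read -4.08, -4.11 and -4.03 there and was well above background on 0 head arrays, so it was at least 2.32-fold lower in the head. That bound sets the mean tail level against the higher, on each head array, of the probe's own level and the lowest signal well above background. All 8 kept their sign under each setting tried. For probes chosen without overlap this had to hold with 1 array left out, and the filters and the replicate block do not alter the difference itself. With normexp background correction their differences shrank to between -0.69 and -0.06.

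The single higher probe, uc.147-, read -4.91, -6.84 and -6.11 in the tail and -4.40, -4.70 and -4.21 in the head (limma adjusted p = 0.223). It passed the filter through its 3 head arrays, and only 1 tail array, replicate 1, rated it well above background. With tail replicates 2 and 3 raised to the lowest level well above background, the head mean was higher by only 0.30 and the regions overlapped, so it no longer met the rule. Those lowest levels were higher on tail replicates 2 and 3 than on the head arrays, which works against a higher value in the head. With normexp background correction the difference was 0.12. The other 6 uc probes higher at an unadjusted p below 0.05 were uc.3-, uc.34-, uc.138+, uc.173-, uc.335+ and uc.471-.

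Some probes were detected in 1 region alone. There were 10 uc probes (1.04%, background 0.415%) well above background on 3 tail and 0 head arrays: uc.53-, uc.81+, uc.85-, uc.125-, uc.140+, uc.214+, uc.383+, uc.421-, uc.468+ and uc.469-. By the scanner software's signal they were at least 1.503-fold (uc.140+) to at least 2.39-fold (uc.214+) lower in the head. With levels raised to the lowest one well above background, the regions overlapped in uc.81+, uc.125- and uc.140+. With normexp background correction the log2 differences ran from only -0.12 (uc.214+) to -0.03 (uc.469-). On 3 head and 0 tail arrays there was 1 (0.104%, background 0.085%), uc.226+, at least 1.11-fold higher in the head by the mean. The levels of uc.226+ overlapped between the regions. The lowest signal that counted as well above background lay at levels of -5.70 to -4.58 on the tail arrays and -5.49 to -5.10 on the head arrays.

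The spread over the 6 arrays was much like that of other probes. Among the 349 uc probes detected on all 6 arrays the median SD was 0.53, against 0.50 for all such probes, and 27 exceeded 1. The extremes named here were chosen after their values were seen. The widest was uc.346+, from an element whose silencing by DNA methylation has been described in tumours. It read 1.88, -2.54 and 2.04 in the tail and -2.47, -2.38 and 3.14 in the head, an SD of 2.67, so each region held both high and low arrays. Its minus probe stayed between -2.45 and -1.32. The levels of uc.117- were -2.18, 1.53 and 1.35 in the tail and -0.84, 0.84 and -1.15 in the head, and those of uc.252+ were -0.01, 2.78 and 2.41 in the tail and 0.60, 2.50 and 0.23 in the head. In both, tail replicates 2 and 3 and head replicate 2 were high and the other 3 arrays low. At the other end, uc.352- stayed between -2.58 and -2.27, uc.354+ between -1.96 and -1.63 and uc.280+ between -1.62 and -1.22.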

How the data were processed

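Per the submitters' processing notes the scanner software was Agilent Feature Extraction 11.0.1.1. The intensity values used are its processed signals, background-subtracted and detrended over the array, per the file headers. The deposited value table holds the authors' log2 values; judged by its values it is quantile-normalized, and its floor is not explained in the sources used here. Control spots and outlier spots (130 to 177 per array, 0 of uc probes) were left out, repeated spots of 1 probe were combined as the mean of their log2 signals, and the array's 75th percentile over probes was taken off. The number of arrays limits the precision. The regions were compared (head minus tail) in limma 3.58.1 under R 4.3.3 (lmFit, eBayes with trend, two-sided) over all probes well above background on at least 3 arrays with at least 2 values per region, with Benjamini-Hochberg adjustment at 0.05. On simulated data of 32108 probes the fit recovered 0, 0, 25 and 47 of 50 changed probes at log2 sizes of 0.5, 1, 2 and 4, with 7 false calls. The simulated noise was independent for each probe and array. It lacked the correlated deviations between arrays and the differences by signal level seen in the data, so these rates need not hold for them.

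The labels number the arrays 1 to 3 in both regions, and each pancreas gave both parts, per the labels' protocols. Deviations of same-numbered arrays correlated at 0.513, 0.747 and 0.287 over all probes, and those of other head and tail arrays at -0.612 to 0.222. Over uc probes the same-numbered values were 0.432, 0.739 and 0.0308. There head 3 with tail 1 (0.378) and head 2 with tail 3 (0.368) lay above pair 3. For the replicate block the numbers were taken to pair the arrays, which the uc values do not bear out for pair 3. The main fit left the pairing out. Alternatives were quantile normalization, median centring, normexp (offset 50, on median spot and background signals, since no mean signal column was used), the deposited table, other filters and detection rules, a replicate block, slide as a random block, each array left out and, added after the values were seen, levels raised to the lowest one well above background on their array. Probes named are the 10 with the highest mean level, the 8 with the smallest p in each direction among those differing by at least 1 without overlap, the 6 elements with the largest strand difference each way, and examples from 3 lists of elements. Members and lists were chosen with earlier results of these data known. Probe sequences and genome positions were not used here.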

Additional observations from a re-analysis of the deposited data

How the results depend on the processing

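Of the 484 tested uc probes, 7 were reported as higher in the head at an unadjusted p below 0.05 (limma). The count was 31 under quantile normalization (6.4%, background 5.14%) and 30 under median centring (6.2%, background 8.78%). It was 25 under normexp (5.17%, background 5.16%) and 29 in the deposited table (5.99%, background 5.08%). It was 36 with the replicate block (7.44%, background 9.56%) and 41 with slide as a random block (8.47%, background 11.9%). With 1 array left out it ran from 0 (without tail replicate 2, background 1.33%) to 52 (without tail replicate 1, 10.7%, background 14.6%). The count lower in the head was 114 as reported. Under the first 4 of these settings it was 40 (8.26%, background 6.6%), 62 (12.8%, background 6.26%), 38 (7.85%, background 6.51%) and 38 (7.85%, background 6.52%). With no filter it was 229 of 959 (23.9%, background 16.6%), and with slide as a random block 197 (40.7%, background 29.7%). With 1 array left out it ran from 48 (9.92%, background 5.63%) to 197 (40.7%, background 27.9%). The median difference (-0.46) was -0.13, -0.20, -0.024 and -0.11 under those 4 and -0.60 to -0.32 with 1 array left out. The adjusted count was 0 under each setting except slide as a random block, which called 111 with an estimated correlation of -0.32 within slides; slide and region cannot be told apart. With the replicate block 0 uc probes passed the adjusted threshold, and 164 were lower at the unadjusted p.

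Detected probes (484) numbered 727 when a signal positive and significant against background was enough. Elements with both strands (145) numbered 83 with all 6 arrays required, 291 under the positive and significant rule and 280 against the 99th percentile of negative controls, and elements with neither (141) numbered 214, 44 and 49 under these and 88 with 1 array enough.

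Of 29 named probes 6 changed the sign of a small difference in at least 1 setting. The value was 0.0084 for uc.162-, 0.030 for uc.378- and 0.25 for uc.77+ under median centring, -0.27 for uc.456- under quantile normalization, -0.25 for uc.456- and -0.036 for uc.84- under normexp, -0.28 for uc.456- in the deposited table and 0.053 for uc.77+ with slide as a random block. With 1 array left out it ran from -0.94 to 0.10 for uc.162-, -0.076 to 0.69 for uc.247+, -0.059 to 0.75 for uc.84-, -0.59 to 0.10 for uc.378-, -0.29 to 0.28 for uc.456- and -0.30 to 0.25 for uc.77+. The cause was not tested. Strand differences of 22 named elements changed sign in 0 values, and 31 values moved by more than the spread over arrays, with the 12 elements named for their strand difference at sizes of 2.35 to 8.60 under normexp and 5.29 to 12.04 in the deposited table. Signal over background sets the limit for uc probes that were not detected, whose levels are only bounds.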
